A study of Mus musculus with 40 samples.

Results

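The change in DNA methylation between pro-B cells and follicular B cells of mice lacking both Tet2 and Tet3 (double knockout, DKO) is described here over 199863 tiles of 100 bp. Members are the autosomal tiles that had a value in each of the 6 DKO libraries, 21.4% of the 932955 autosomal tiles in the table. The question was what loss of methylation remains between these stages when both enzymes are missing. Levels came from reduced representation bisulfite sequencing (RRBS), which reads CpG methylation in restriction fragments rich in CpG.

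Enzymes of the Tet family, Tet2 and Tet3 among them, oxidise 5-methylcytosine. The oxidised bases can be replaced by unmodified cytosine through base excision repair, or are lost by dilution when DNA is copied. Methylation can also be lost without oxidation, when the maintenance methyltransferase does not copy it at replication. Pro-B cells are early B-cell precursors of the bone marrow, and follicular B cells are mature, resting cells of spleen and lymph nodes.

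The follicular DKO group held libraries 22, 23 and 24, and the pro-B DKO group held libraries 10, 11 and 12. In each group 2 libraries came from males of 7 weeks and 1 came from a female of 6 weeks. All mice were C57/bl, and per the labels the deletion was inducible and driven by the MB1 promoter, which is active in B-lineage cells. Libraries of mice lacking Tet2 alone (Tet2KO; females of 6 and 8 weeks), of mice lacking Tet3 alone (Tet3KO; both sexes, 7 weeks) and of wild-type mice (WT; both sexes, 6 and 8 weeks) are used for comparison, 3 of each stage. Libraries that differ in sex or age stem from different mice, but the labels do not state this for libraries alike in both, such as the 2 male libraries of each DKO group, so p-values measure only how far these libraries spread, which may be technical. The main tests treated the stages as unpaired, although libraries 22 and 10, 23 and 11, and 24 and 12 are alike in sex and age. The deletion of the genes themselves was not checked, since RRBS tiles carry no gene names here, and neither were cell type markers.

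Depth was unknown, because the table gives a fraction per tile and no read counts. The number of tiles with a value, a rough stand-in, was 480090 to 527930 in follicular DKO libraries. It was 556257, 447477 and 273728 in pro-B DKO libraries 10, 11 and 12. Library 12 stands apart with the fewest tiles of the 6. It was listed at exactly 100% at 22.7% of the members and at 0 at 41.9%, and such values can rest on few reads. Pro-B Tet3KO library 8 had 24600 tiles, so Tet3KO values at most tiles rest on 2 pro-B libraries.

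Over the member tiles, follicular DKO cells were not less methylated than pro-B DKO cells on average. Mean methylation over all 199863 tiles was 41.9%, 41.2% and 41.8% in follicular DKO libraries, against 41.7%, 39.8% and 39.7% in pro-B DKO libraries. The follicular values overlapped those of pro-B cells because library 10 lay among them. The means were 41.6% ± 0.401 in follicular and 40.4% ± 1.09 in pro-B DKO cells (SD, n = 3 each), so that follicular cells lay 1.23 points higher (SE 0.671, two-sided exact permutation p = 0.2). Without library 10 the difference was 1.86 points. Follicular means were not lower in WT or Tet2KO cells either, lying 4.27 and 1.49 points higher, over tiles that differ between those libraries. The median tile difference was 0.0237 points in WT cells and 0 in DKO, Tet2KO and Tet3KO cells. The smallest p that 3 against 3 libraries can give is 0.1.

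The members were then split by their level in pro-B WT libraries, which take no part in the DKO comparison. At the 106381 tiles under 20% in pro-B WT cells, follicular DKO libraries stood at 4.52%, 3.94% and 4.48% and pro-B DKO libraries at 3.78%, 2.69% and 2.96%. All 3 follicular libraries lay above all 3 pro-B libraries, by a mean of 1.17 points (SE 0.375, exact permutation p = 0.1). At the 22537 tiles of 20 to 80%, the follicular means were 66.9%, 64.1% and 66.3% and the pro-B means 66.8%, 59.1% and 58.6%. Library 10 again lay within the follicular range, and follicular cells lay 4.27 points higher (SE 2.79, exact permutation p = 0.3). It was 6.92 points without library 10. At the 59758 tiles over 80% the levels were 93.0% ± 0.164 in follicular and 92.8% ± 0.684 in pro-B DKO cells (SD, n = 3 each), a difference of 0.153 points (exact permutation p = 0.7). In this class 54.3% of tiles had a lower follicular than pro-B DKO mean, and the median tile difference was -0.532 points.

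**Figure D1:**
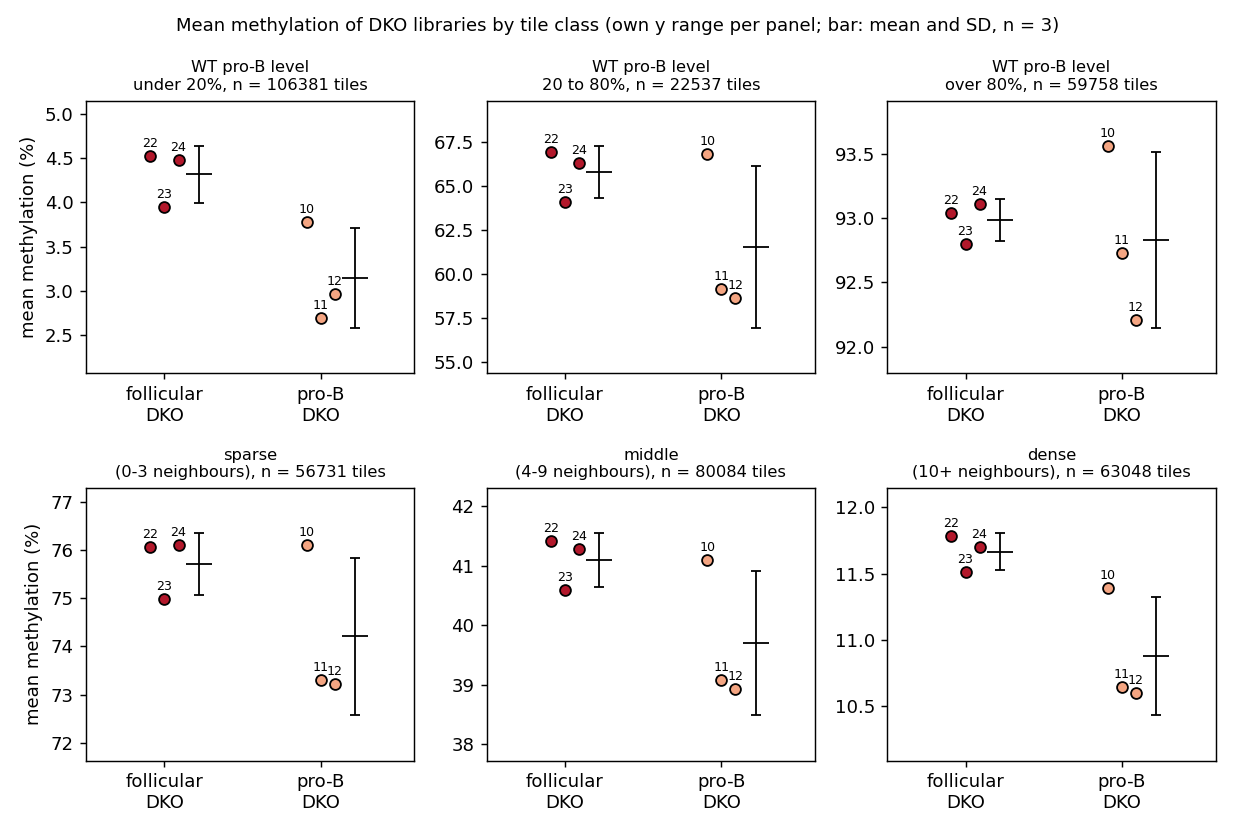
Mean methylation (%, y axis) of follicular DKO libraries (dark points) and pro-B DKO libraries (light points), 1 point per library with its number, by the pro-B WT level of the tiles (upper row) and by the number of other tiles within 1 kb (lower row). Bars give the mean and SD (n = 3), and each panel has its own y range that does not start at 0. Library 10 lies near the follicular libraries in most panels, and the stages do not overlap in the panels of tiles under 20% and of dense tiles.

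Tile density, the number of other tiles with a value within 1 kb, stands for the local density of CpG sites. Dense tiles, with at least 10 neighbours, were at 11.7% ± 0.139 in follicular and 10.9% ± 0.446 in pro-B DKO cells (SD, n = 3 each), higher in follicular cells by 0.787 points (SE 0.270, exact permutation p = 0.1). Tiles with 4 to 9 neighbours differed by 1.39 points (exact permutation p = 0.2) and sparse tiles with at most 3 by 1.5 points (exact permutation p = 0.4). In those 2 classes the stages overlapped.

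Single tiles were tested with limma over all 24 libraries, and a tile was called when its Benjamini-Hochberg adjusted p was under 0.05 and the means differed by at least 20 points. In follicular DKO cells 53 tiles were lower than in pro-B DKO cells, which is 0.0265% of the members. In the other direction 249 tiles were higher, which is 0.125%. In all, 19835 tiles (9.92%) had an unadjusted p under 0.05. The middle 95% of tile differences ran from -12.8 to 22.9 points. The 3 follicular libraries lay below the 3 pro-B libraries at 9285 tiles (4.65%) and above them at 12054 (6.03%). Leaving out a library moved the counts. The lower tiles numbered 80, 90 and 80 without library 22, 23 or 24, and 109 without library 10. The higher tiles numbered 422 without library 23 and 919 without library 10. With only the 6 DKO libraries fitted, 14 tiles were lower and 14 higher.

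Tiles lower in follicular than in pro-B WT cells had a smaller difference between the DKO stages. The WT libraries share none with the DKO comparison, and 188535 members could be tested in them. Follicular WT cells were lower than pro-B WT cells at 85 tiles (0.0451% of those tested) and higher at 269 (0.143%). With libraries centred on a common mean these counts were 90 and 154, and without follicular WT library 13, 14 or 15 the higher tiles numbered 162, 172 or 158. At the 85 tiles, follicular DKO libraries stood at 73.8%, 73.0% and 73.1% and pro-B DKO libraries at 81.5%, 82.9% and 84.0%. The stages did not overlap, and the DKO change was -9.48 points (SE 0.759, exact permutation p = 0.1, n = 3 each). The same tiles were at 47.1% ± 1.12 in follicular and 85.4% ± 0.703 in pro-B WT cells (SD, n = 3 each), a gap that is overstated because it chose them. Follicular Tet2KO libraries were at 57.8% ± 1.53 and pro-B Tet2KO libraries at 78.8% ± 0.548, a change of -21 points.

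The size of the remaining DKO fall moved by over 1.5 times with how the WT tiles were chosen. In the fit of all 24 libraries the DKO libraries take part in the estimate of the spread. With the choice made from the 18 libraries other than DKO, 86 tiles qualified, and the DKO difference there was -4.53 points (SE 1.43, exact permutation p = 0.1). With the choice made from the 6 WT libraries alone, 30 tiles qualified, and it was -2.52 points (SE 1.33, exact permutation p = 0.1). The stages did not overlap at either list. Both choices were added after the data were seen. The median of the tile differences over the 85 tiles was -4.78 points. Among tiles with a value in all 24 libraries 1 was lower in WT cells, and its DKO difference was -30.0 points.

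**Figure D2:**
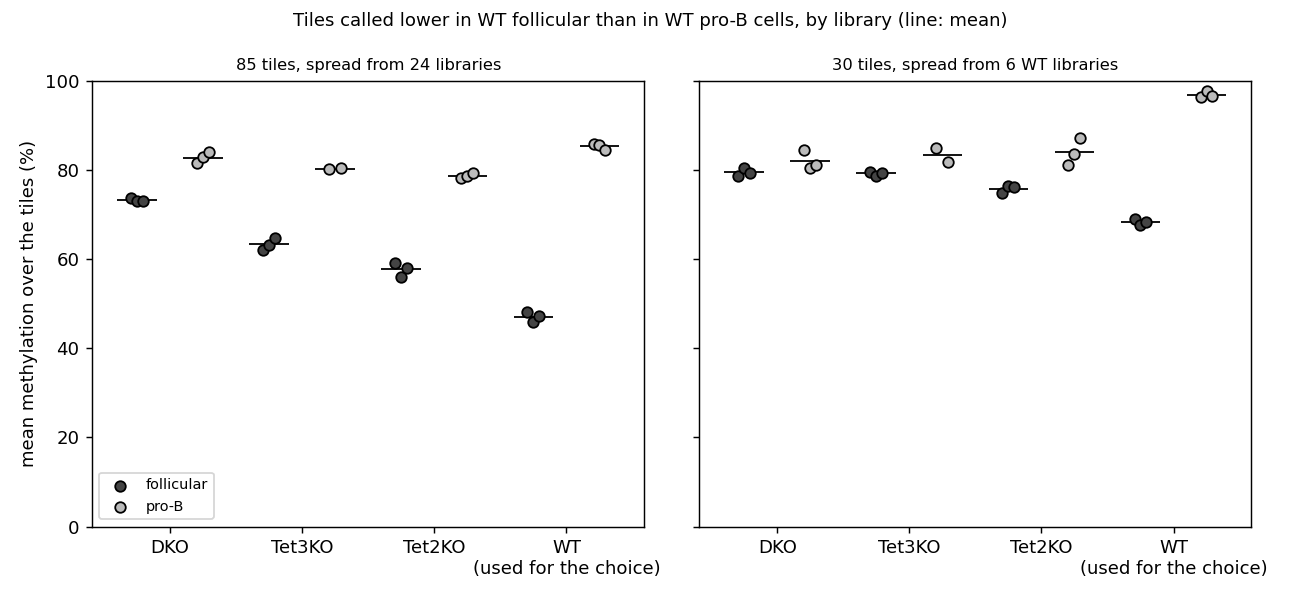
Mean methylation (%, y axis) over tiles called lower in follicular than in pro-B WT cells, 1 point per library with the mean as a line, in follicular (dark) and pro-B (light) libraries of each genotype (x axis); pro-B Tet3KO library 8 is not shown. In the left panel (85 tiles) the DKO stages are 9.48 points apart, and in the right panel (30 tiles, chosen with the 6 WT libraries alone) 2.52 points.

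By group means, the single knockouts had larger falls at these tiles than DKO cells. Whether the changes differed was tested by exchanging genotype labels within each stage, over 6 comparisons chosen after the data were seen. This test also reacts to level differences between genotypes within a stage. At the 85 tiles the DKO change lay 11.5 points above the Tet2KO change (SE 1.21, exact permutation p = 0.1, adjusted p = 0.12). With the 18-library choice it lay 14.3 points above (SE 1.49, exact permutation p = 0.015, adjusted p = 0.09), and with the WT-only choice 5.63 points above (SE 2.22, exact permutation p = 0.045, adjusted p = 0.12). None of these passed after adjustment. Library 8 aside, 50 of the 85 tiles had a value in every library. There the DKO change was -7.60 points, the Tet2KO change -22.8 points and the Tet3KO change -18.7 points. The DKO change there lay 11.1 points above that of Tet3KO (exact permutation p = 0.1, adjusted p = 0.12, 2 pro-B Tet3KO libraries). At 11 tiles of the WT-only choice with those 23 libraries it lay 5.19 points above (SE 3.30, exact permutation p = 0.21).

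Tile by tile, the 85 fell into 3 groups by their DKO change. At 43 tiles the DKO mean fell by less than 5 points or did not fall, at 21 it fell by 5 to 20 points, and at 21 by 20 points or more. Follicular DKO cells were above 80% at 42 of the 85 tiles. Follicular WT levels are not compared here, since the tiles were chosen for low values of them, and the counts hold for this choice of tiles.

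The largest WT falls went with small and with large DKO changes. Among the 5 single tiles named for them, the DKO change was -2.62 points at W6, -1.20 at W7 and -0.353 at W9, but -43.9 at W8 (chr16:20701901-20702000) and -35.6 at W10 (chr11:113648701-113648800). Neither W8 nor W10 was called in DKO cells (limma adjusted p = 0.137 and 0.334), and the WT changes there were -72.1 and -70.2 points. At chr8:74844701-74844800 (region W6), follicular DKO libraries stood at 92%, 84.4% and 94.7% and pro-B DKO libraries at 98.6%, 80.4% and 100%. The DKO stages overlapped. Follicular WT libraries were at 13.2%, 13.4% and 12.1%, against 100% in both pro-B WT libraries with a value, and the DKO change lay 84.5 points above the WT change (limma adjusted p = 0.00581). At chr19:53517501-53517600 (W7) follicular DKO libraries were at 96.2%, 95.6% and 87.9% and pro-B DKO libraries at 95.7%, 90.9% and 96.7%. In WT cells, follicular libraries stood at 4.35%, 9.80% and 3.03% and pro-B WT libraries at 75%, 81.5% and 100%. This tile was also low in follicular Tet2KO cells, at 11.1% against 93.1% in pro-B Tet2KO cells, and the DKO change exceeded the WT change by 78.6 points (limma adjusted p = 0.0135).

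At chr15:58838001-58838100 (W9) follicular DKO libraries were at 96.7%, 95.2% and 98.4% and pro-B DKO libraries at 95.8%, 95.6% and 100%. The follicular WT libraries were at 25.0%, 22.3% and 17% and pro-B WT libraries at 100%, 100% and 76.7%, and the changes differed by 70.5 points (limma adjusted p = 0.000491). Tet2KO cells were intermediate at this tile, at 51.3% in follicular and 97.0% in pro-B cells. At chr12:118796001-118796200 (W3, 2 tiles) follicular DKO libraries were at 99.0%, 99.7% and 96.2% and pro-B DKO libraries at 100%, 98.8% and 94.1%. Follicular WT libraries were at 56.9%, 64.8% and 67.2% and pro-B WT libraries at 100% in all 3. The mean DKO change of W3 lay 37.7 points above the WT change, and 1 of its 2 tiles passed the test. That tile, chr12:118796001-118796100, differed by 48.6 points (limma adjusted p = 0.0431) and rests on 2 pro-B WT libraries, and the adjusted p of the other tile was 0.420. At chr6:88726901-88727100 (W1, 2 tiles) the follicular DKO level was 96.5%, 93.8% and 91.6% and the pro-B DKO level 97.4%, 100% and 100%. The DKO libraries did not overlap there although their gap was small, while follicular WT libraries were at 19.2%, 26.5% and 24% and pro-B WT libraries at 86.5%, 57.8% and 74.0%. The difference of the changes at W1 was 44.4 points and was not called (lowest limma adjusted p = 0.330).

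The remaining loss was found at other tiles of the same list. Of the 85 tiles, 12 were also called lower in follicular DKO cells. They are 14.1% of the 85 and 26.1% of the 46 lower DKO tiles that could be tested in WT, against a background of 0.0265% of members lower in DKO. This background is not matched in level. It holds the 53.2% of members with a pro-B WT level under 20%, a class with 0 of the 85 tiles. No tile was called in opposite directions. The WT and DKO comparisons share no library but share the estimate of the spread. Over the 12 tiles, follicular DKO libraries averaged 62.2% ± 3.26 and pro-B DKO libraries 89.0% ± 2.68, a change of -26.8 points. The WT change was -27.5 points, with 62.7% ± 0.883 in follicular and 90.2% ± 1.13 in pro-B WT cells (SD, n = 3 each). Tet2KO cells changed by -23.5 points at these tiles, and the Tet3KO median tile change was -22.7 points. These levels are given without a test, since they chose the tiles.

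The following tiles of the 12 were picked after their values were seen. At chr10:103217001-103217100 follicular DKO libraries were at 47.8%, 51.9% and 41.8% and pro-B DKO libraries at 78.5%, 78.9% and 75%. In WT cells, follicular libraries stood at 40.6%, 33.8% and 39.4% and pro-B WT libraries at 79.8%, 79.6% and 80.6%. The stages were far apart in both genotypes, and the Tet2KO and Tet3KO changes were -31.0 and -34.2 points. At chr11:29338801-29338900 follicular DKO libraries stood at 42.0%, 43.3% and 40.4% and pro-B DKO libraries at 64.5%, 60.9% and 64.4%. Follicular WT libraries stood at 37.8%, 38.0% and 36.9% and pro-B WT libraries at 64.9%, 61.5% and 67.6%. Libraries of a group lay close together, and the stages were separate in both genotypes.

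At chr11:27289101-27289200 follicular DKO libraries were at 57.5%, 58.2% and 58.9% and pro-B DKO libraries at 79.1%, 86.9% and 91.3%. The follicular WT libraries were at 57.5%, 56.4% and 52.9% and pro-B WT libraries at 85.2%, 77.2% and 80.4%. The follicular libraries of both genotypes ended within a narrow band. At chr2:58575001-58575100 follicular DKO libraries were at 67.6%, 62.0% and 71.2% and pro-B DKO libraries at 96.9%, 91.2% and 100%, and the follicular WT libraries were at 70.6%, 78.1% and 83.6% with all 3 pro-B WT libraries at 100%. The one tile of the 12 whose Tet3KO change was above 0 was chr11:110085301-110085400, at 57.5 points, and it rests on a single pro-B Tet3KO library.

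The 53 tiles lower in follicular DKO cells were seldom part of longer stretches. They formed 50 regions, of which 2 held 2 or more called tiles. Their mean was 56.2% ± 1.10 in follicular and 89.8% ± 2.69 in pro-B DKO cells (SD, n = 3 each), values that chose them. In pro-B DKO cells 43 of the 53 were over 80%, and in follicular DKO cells 47 lay between 20 and 80%. By density 25 were sparse (47.2%, against 28.4% of all members), 23 had 4 to 9 neighbours (43.4%, against 40.1%) and 5 were dense (9.43%, against 31.5%). Library 12 was listed at 100% at 34 of the 53, against 22.7% of all members. These shares are not alike in level, since the tiles were chosen partly on high values of library 12. Of all members, 34.9% were over 80% in pro-B DKO cells. The part of few reads in these calls was not tested.

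WT cells moved the same way at most of them. At these 53 tiles follicular WT libraries stood at 60.4%, 61.7% and 61.0% and pro-B WT libraries at 73.4%, 75.7% and 76.6%. All follicular values lay below all pro-B values, a change of -14.2 points (SE 1.01, exact permutation p = 0.1). Each library mean is over the tiles with a value in that library, so the stages are not averaged over the same tiles. Of the 53, 7 had a value in fewer than 2 pro-B WT libraries. The median WT tile change was -20.3 points over the 46 tiles tested in WT, against 0.0577 over all members tested. Tet2KO cells changed by -17.2 points, with 61.4% ± 0.451 in follicular and 78.6% ± 2.33 in pro-B cells (SD, n = 3 each). The Tet3KO change was -20.7 points at the 20 of these tiles where every library but library 8 had a value. The follicular DKO mean lay within 10 points of the follicular WT mean at 35 of the 53 tiles. It lay over 10 points lower at 16 and over 10 points higher at 2. These counts lean on the choice of tiles, made partly on low follicular DKO values.

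**Figure D3:**
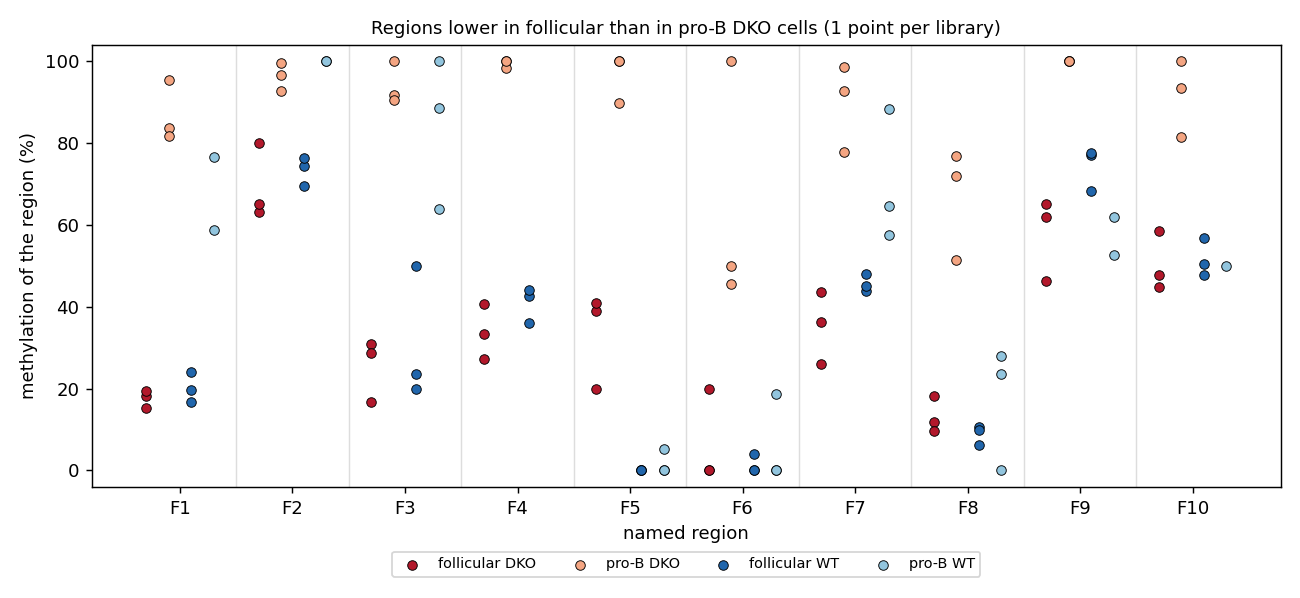
Methylation (%, y axis) of regions F1 to F10 (x axis), the named regions lower in follicular than in pro-B DKO cells, with 1 point per library; missing points are libraries with no value. Follicular DKO points lie below pro-B DKO points in each region, and at F5 and F6 the WT points of both stages lie at 0 to 5.26% except for 1 pro-B WT library at F6, at 18.8%.

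The largest fall between DKO stages was at chr2:22444201-22444400 (F1, 2 tiles). Follicular DKO libraries stood at 18.1%, 19.4% and 15.3% and pro-B DKO libraries at 95.3%, 83.7% and 81.6%. The change was -69.3 points (limma adjusted p = 0.00432 and 0.0109 for its tiles), and the region stayed called with each of the 6 libraries left out. With only the 6 DKO libraries fitted, 9 of the 10 named falls, F1 among them, and all 10 named gains lost their call. Follicular WT libraries were at 19.6%, 24.1% and 16.7%, against 76.4% and 58.8% in the 2 pro-B WT libraries with a value. The stages were separate in WT cells too, and Tet2KO cells were at 21% in follicular and 79.6% in pro-B cells.

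Region F2, chr5:32824301-32824600, was the longest, with 3 called tiles. Follicular DKO libraries were at 63.1%, 65% and 80.1% and pro-B DKO libraries at 92.6%, 99.5% and 96.6%, a change of -26.9 points (limma adjusted p = 0.00697 to 0.0394). In WT cells, follicular libraries stood at 69.4%, 74.4% and 76.2% and both pro-B WT libraries with a value at 100%. Follicular means were lower in all 4 genotypes at F2, with a DKO change of -26.9 points and changes of -29.6 points in Tet2KO, -26.9 in Tet3KO and -26.7 in WT cells. The DKO change minus the WT change was -0.187 points.

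Other named falls were single tiles. At chr10:104675301-104675400 (F7) follicular DKO libraries were at 43.6%, 36.4% and 26.0% and pro-B DKO libraries at 92.7%, 98.4% and 77.8% (change -54.3 points, limma adjusted p = 0.00277). The WT stages were also apart there, at 43.8%, 48.0% and 44.9% in follicular and 88.2%, 64.7% and 57.6% in pro-B libraries. Its neighbours at chr10:104675401-104675500 and chr10:104675501-104675600 differed by 2.70 and 4.15 points in DKO cells. At chr11:33654901-33655000 (F4) the follicular DKO libraries were at 40.7%, 27.3% and 33.3% and the pro-B DKO libraries at 100%, 98.3% and 100% (change -65.7 points, limma adjusted p = 0.0109). Follicular WT libraries at F4 were at 35.9%, 42.6% and 44.0%, and pro-B WT libraries had no value. The tile next to F4 changed by -22.9 points without being called, and the one beyond it by -1.96.

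F3, F6, F8, F9 and F10 each lost their call with 1 or another DKO library left out, while the change stayed beyond 20 points. F3 (chr2:127496601-127496700, change -68.7 points) lost its call without library 22, 11 or 12, and its 4 measured neighbours changed by -8.11 to 7.54 points. F9 (chr10:74628201-74628300, -42.3 points) lost its call without library 22, 23, 10, 11 or 12, and F10 (chr18:37916701-37916800, -41.2 points) without library 24, 11 or 12. Without each library in turn the change ran from -71.5 to -64.4 points at F3, -46.0 to -36.5 at F9 and -46.3 to -37.0 at F10. Over the 18 uncalled members within 500 bp of the 7 falling regions that had any, the median DKO change was -0.843 points, and 2 fell and 2 gained by over 10 points.

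At 6 of the 53 tiles the pro-B WT level was under 20%. A call needs a fall of 20 points, so pro-B DKO means could not be under 20% there. There follicular DKO libraries averaged 18%, 10.4% and 14% and pro-B DKO libraries 49.9%, 58.0% and 75.2%. Follicular WT cells were at 5.86% ± 1.82 and pro-B WT cells at 6.35% ± 4.90, follicular Tet2KO at 9.73% ± 2.5 and pro-B Tet2KO at 14% ± 3.39 (SD, n = 3 each). Both of these pairs overlapped. Among the 46 tiles with a pro-B WT level, 10 were over 20 points higher in pro-B DKO than in pro-B WT cells. At 0 of them was pro-B DKO over 20 points lower. These counts lean on the choice, since the tiles were chosen partly on high pro-B DKO values. No share over all members is given for them.

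Region F5, chr7:139883701-139883800, is one of the 6. Follicular DKO libraries were at 38.9%, 20% and 40.9% and pro-B DKO libraries at 100%, 89.7% and 100%. Follicular WT libraries were listed at 0, and pro-B WT libraries at 5.26%, 0 and 0. DKO cells of both stages lay above all WT libraries, and the Tet2KO mean was 0 in both stages. The DKO change was -63.3 points (SE 4.35, limma adjusted p = 7.03e-06) and the DKO change minus the WT change was -61.5 points (limma adjusted p = 0.000508). It stayed called without each DKO library. The nearest measured tile, chr7:139883901-139884000, changed by -6.85 points in DKO cells and was not called.

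The DKO change was smaller at the other 5 of the 6. At chr8:129348801-129348900, picked after its values were seen, follicular DKO libraries were at 13.6%, 17.7% and 16.3% and pro-B DKO libraries at 33.0%, 56.8% and 78.0%. The follicular WT libraries were at 5.35%, 3.00% and 6.45% and pro-B WT libraries at 0, 0 and 12.3%. Pro-B DKO libraries were the highest of the 4 groups but far apart from each other. At chr19:42100701-42100800, also picked afterwards, follicular DKO libraries were at 2.5%, 13.1% and 6.98% and pro-B DKO libraries at 36.4%, 42.6% and 50%, with all pro-B WT libraries at 0 and follicular WT libraries at 8.91%, 17.2% and 23.8%. The DKO and WT changes ran in opposite directions there (limma adjusted p of the difference 0.0170). Of the 6 tiles, 1 fell by 20 points or more in Tet3KO cells and 1 in Tet2KO cells. In Tet3KO it was chr19:42100701-42100800, at 35.1% in pro-B (2 libraries) and 10.7% in follicular cells. For Tet2KO it was chr17:32302701-32302800, at 37.4% in pro-B and 10.4% in follicular cells, against 38.7% and 8.51% in DKO cells. F6 (chr19:8667001-8667100) and F8 (chr11:115182901-115183000) lost their calls without library 23 or 24, and F8 also without library 11 or 12. Without each library in turn the change ran from -68.3 to -41.1 points at F6 and from -61.3 to -48.5 points at F8.

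**Figure D4:**
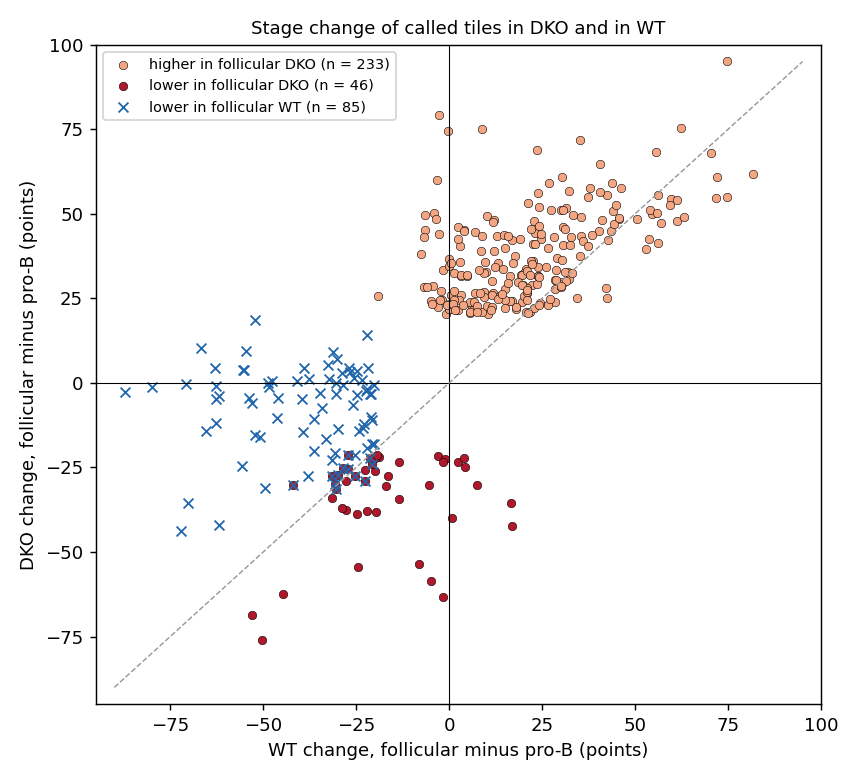
Change in DKO cells (follicular minus pro-B, points, y axis) against the change in WT cells (x axis), 1 mark per tile. Tiles lower in follicular WT cells (crosses, n = 85) spread over DKO changes of -43.9 to 18.6 points, and tiles lower in follicular DKO cells (dark circles, n = 46) were chosen on the y axis; the dashed line marks equal changes.

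In the fit of all 24 libraries, called gains outnumbered losses in DKO cells and in WT cells, while the fit of the 6 DKO libraries called 14 of each. The 249 higher tiles formed 234 regions, 15 of them with 2 called tiles, and 162 of the 249 had a pro-B WT level under 20% (65.1%, against 53.2% of all members). They averaged 56.2% ± 1.5 in follicular and 18.3% ± 4.09 in pro-B DKO cells (SD, n = 3 each), values that chose them. At the same tiles follicular WT libraries stood at 45.0%, 44.1% and 44.6% and pro-B WT libraries at 19.1%, 22.7% and 21.9%. The WT stages were separate, the follicular mean lying 23.3 points higher (SE 1.12, exact permutation p = 0.1). These means too are over the tiles with a value in each library, and 16 of the 249 lacked a pro-B WT level. Over the 233 tested in WT the median WT tile change was 20.7 points. Tet2KO cells differed by 20.8 points. Of the 249, 55 were called higher in WT too, which is 23.6% of the 233 tested in WT and 20.4% of the 269 WT tiles. Follicular DKO cells were over 10 points above follicular WT cells at 120 of the 249 tiles. They were within 10 points at 127 and over 10 points lower at 2. These counts lean on the choice, since the tiles were chosen partly on high follicular DKO values. No share over all members is given for them. Library 12 was listed at 0 at 124 of the 249 (49.8%, against 41.9% of all members). These shares are not alike in level, since the tiles were chosen partly on low values of library 12. In pro-B DKO cells 70.7% of the 249 were under 20%, against 53.0% of all members.

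**Figure D5:**
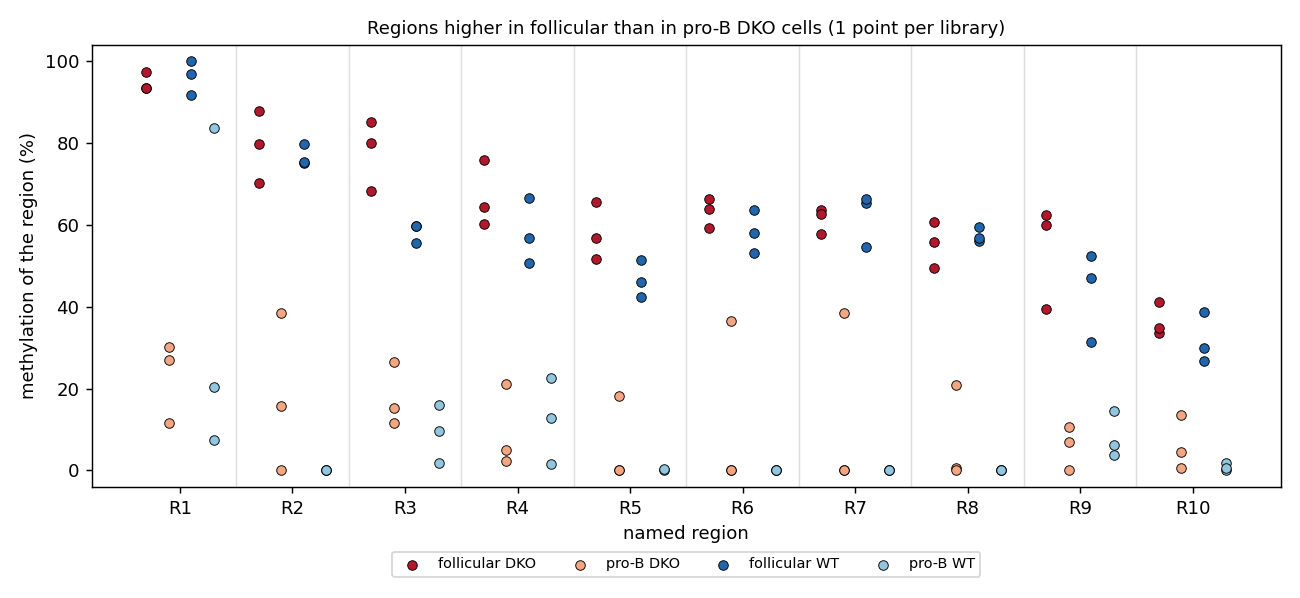
Methylation (%, y axis) of regions R1 to R10 (x axis), the named regions of 2 called tiles higher in follicular than in pro-B DKO cells, with 1 point per library. Follicular DKO and follicular WT points lie above the pro-B DKO points. In all of these regions but R3 and R9, library 10 is the highest pro-B DKO point, at 13.7% to 38.5%.

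At chr5:147072501-147072700 (R1) follicular DKO libraries were at 97.2%, 93.5% and 93.5% and pro-B DKO libraries at 30.1%, 26.9% and 11.6%, a change of 71.8 points (limma adjusted p = 0.0188 and 0.0384). The call was lost without library 12, and the change ran from 66.2 to 75.5 points without each library in turn. Follicular WT libraries were at 96.8%, 91.7% and 100%, while pro-B WT libraries were spread over 7.38%, 83.6% and 20.5%. At chr10:40021801-40022000 (R8) follicular DKO libraries were at 49.5%, 55.9% and 60.8% and pro-B DKO libraries at 21%, 0.490% and 0, with the 3 follicular WT libraries at 56.1%, 59.6% and 56.7% and all pro-B WT libraries at 0. R8 stayed called without each DKO library, and its measured neighbours were at most 3.16% in every DKO library. At chr7:7030601-7030800 (R4) follicular DKO libraries were at 75.9%, 64.3% and 60.2% and pro-B DKO libraries at 21.1%, 5.12% and 2.24%. At chr6:148586501-148586700 (R10) the smallest named gain, 30.3 points, was close to the WT gain of 30.9 points.

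Library 10 was the highest pro-B DKO library at 118 of the 249 tiles (47.4%, against 20.1% of all members), which were chosen partly on its values. At chr4:51267101-51267300 (R6) it stood at 36.5%, with libraries 11 and 12 at 0. The follicular DKO libraries there were at 63.8%, 59.1% and 66.4%, and the call was lost without library 11 or 12. At chr18:64609501-64609700 (R7) library 10 stood at 38.4%, with libraries 11 and 12 at 0, and the call was again lost without library 11 or 12. R3 (chr12:103606901-103607500, 60.0 points) lost its call without library 24, and R9 (chr9:61226401-61226600, 48.1 points) without library 12. Without each library in turn the change ran from 44.9 to 63.1 points at R6, from 42.1 to 61.3 at R7, from 56.3 to 64.7 at R3 and from 43.9 to 55.3 at R9.

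At 21 of the 249 tiles pro-B WT cells were over 80% methylated. Of the 233 tiles with a pro-B WT level, 25 were over 20 points lower in pro-B DKO than in pro-B WT cells. At 4 tiles pro-B DKO cells were over 20 points higher. These counts lean on the choice, since the tiles were chosen partly on low pro-B DKO values. No share over all members is given for them. At chr1:37144501-37144600, picked after its values were seen, follicular DKO libraries were at 91.9%, 91.7% and 88.0% and pro-B DKO libraries at 35.7%, 50% and 50%. In WT cells, follicular libraries stood at 97.4%, 100% and 83.3% and pro-B WT libraries at 100% in all 3. Of these 4 groups pro-B DKO was the low one, and the changes differed (limma adjusted p = 0.0122).

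Over all tiles tested, the DKO change was below the WT change at 29 tiles (0.0154%) and above it at 15 (0.00796%) by the same call. Of the 15, 11 were tiles called lower in WT. At 27 of the 29 the follicular WT mean was above the pro-B WT mean, and at 24 the DKO stages differed by under 20 points. Of the 29, 24 were called in WT and 3 in DKO, and 20 rested on 2 pro-B WT libraries. The single knockouts were not tested at the 29. By group means, the Tet2KO stages differed by under 20 points at all of these tiles but chr4:140400601-140400700 (25.4 points) and chr11:84419201-84419300. Values at 1 tile within that range and 1 beyond it follow, both picked afterwards. At chr10:117467801-117467900 pro-B WT libraries stood at 14.3% and 36.8%, and all pro-B DKO, Tet2KO and Tet3KO libraries with a value at 100%. At chr11:84419201-84419300 the mean rose by 20.8 points in Tet2KO, 50.5 in Tet3KO (1 pro-B library) and 37.3 in WT cells. The excess of lower over higher tiles was not kept in other fits, which gave 19 lower and 22 higher on logit values, 8 and 11 at mean levels of 10 to 90%, 58 and 124 without library 10 and 38 and 45 without library 12. The lower count was 55, 45 and 46 without DKO library 22, 23 or 24, 58 and 64 without library 10 or 11, and 57, 74 and 55 without pro-B WT library 1, 2 or 3. The higher count was 31, 40 and 33 without library 22, 23 or 24, 124, 60 and 45 without library 10, 11 or 12, and 23 and 26 without library 1 or 3. With only tiles that had a value in all 24 libraries, the lower count was 1 and the higher 0.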

How the data were processed

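The authors deposited, for each RRBS library, a methylation fraction (0 to 1) per 100 bp tile, without coverage. The submitters' processing notes list Trim Galore, methylKit and the builds mm9 and hg19. In the sources used here the aligner and coverage minimum are not given. Coordinates were read as mm9 from the last tile of chromosome 1, which ends at 197193600. No annotation or genome of that build was used, so regions carry no gene names or sequence. The 16 RNA samples were not analysed here.

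Fractions were multiplied by 100 to percentages. The mean of a library over a list of tiles takes only the tiles with a value in that library. Limma 3.58.1 (R 4.3.3, with version 1.17.8 of data.table) was fitted per tile with 8 groups as a factor over the libraries with a value (residual degrees of freedom 4 to 16, median 15) with a trended prior spread. Calls needed an adjusted p under 0.05 and 20 points, two-sided. The WT comparison needed 2 libraries in each WT group. Regions join called tiles that share a direction and lie within 500 bp. Up to 10 regions per direction whose libraries were separate between stages were named, those of 2 or more called tiles first and by size of the change, and single tiles after them. Other tiles are said to be picked afterwards. Changes of genotypes were compared over 400 label arrangements (200 without library 8). Members and lists were chosen with earlier results of these data known. Alternatives were logit values, fewer libraries, other tile sets, 30 points, centring, a robust prior, a sex and age block and libraries left out.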

Additional observations from a re-analysis of the deposited data

Results flagged for a closer look

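At 5 named tiles the change between follicular and pro-B cells differed between DKO and WT by a test of the difference itself (limma, Benjamini-Hochberg adjusted over all tiles tested). At F5 (chr7:139883701-139883800) the DKO change minus the WT change was -61.5 points (adjusted p = 0.000508). It was 84.5 points at W6 (chr8:74844701-74844800, adjusted p = 0.00581), 78.6 points at W7 (chr19:53517501-53517600, adjusted p = 0.0135), 70.5 points at W9 (chr15:58838001-58838100, adjusted p = 0.000491) and 48.6 points at the called tile of W3 (chr12:118796001-118796100, adjusted p = 0.0431). W6 and the tile of W3 rest on 2 pro-B WT libraries. Over whole lists of tiles lower in WT, the DKO change differed from the Tet2KO change by 14.3 points (exact permutation p = 0.015) and 5.63 points (exact permutation p = 0.045) under 2 choices of tiles, and neither passed after adjustment over the 6 comparisons made (adjusted p = 0.09 and 0.12). Adjusted values were adopted for this listing after both had been seen.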

How the results depend on the processing

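The counts of tiles lower and higher in follicular DKO cells (53 and 249) were 99 and 265 on logit values, 14 and 14 with only the compared groups, 1 and 16 with a value in all 24 libraries and 25 and 156 at 30 points. Without 1 library they ran from 47 to 109 and from 213 to 919. The WT counts (85 and 269) were 136 and 322 on logit values, 30 and 58 with only the compared groups, 1 and 8 with all 24 libraries, 51 and 172 at 30 points and 136 and 489 at mean levels of 10 to 90%. The higher WT tiles were 168 with 2 libraries in every group and 154 after centring. Without 1 library the WT counts ran from 60 to 94 and from 158 to 341. The counts for DKO minus WT (29 and 15) were 14 and 12 with only the compared groups, 1 and 0 with all 24 libraries, 19 and 22 on logit values, 11 and 11 with 2 libraries in every group and 8 and 11 at mean levels of 10 to 90%, so the excess of lower tiles was lost or turned in the last 3. Without 1 library they ran from 20 to 74 and from 14 to 124. The median tile difference was 0 over all members and over sparse tiles, 0.0946 under 20%, -0.532 over 80%, 0.0460 at 4 to 9 neighbours and 0.0447 at dense tiles, and the mean under 20% was 0.676 with all 24 libraries. At tiles lower in WT, the DKO change was -30.0 with all 24 libraries, -4.78 as a median, -4.53 with the 18-library choice and -2.52 with the WT-only choice, and without 1 DKO library it ran from -10.1 to -8.87. Over tiles above 80% the mean difference ran from -0.160 to 0.518 without 1 library, and its sign turned in some of these. The causes of these shifts were not tested, except that fewer tiles or libraries enter some fits.

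No paired analysis was run, since the groups compared share no replicate number and the labels do not state which libraries share a mouse. Libraries 22 and 10, 23 and 11, and 24 and 12 match in sex, in age and in their order within the group. A pairing in that order was not tested. With sex and age strata as a replicate block, the counts were 18 lower and 80 higher in DKO, 40 and 71 in WT, and 15 and 5 for DKO minus WT. Under it 6 of the 10 named DKO falls, 7 of the 10 named DKO gains and 5 of the 10 named WT falls lost their call. With only the compared groups these numbers were 9, 10 and 8. Deviations of follicular and pro-B DKO libraries had correlations across tiles of 0.0719 (22 and 10), 0.0931 (23 and 11) and 0.0548 (24 and 12), and the other pairs lay between -0.0523 and -0.0165. The positive values were those of libraries in the same order within their groups. Other pairs of like sex and age were negative, at -0.0484 (22 and 11) and -0.0523 (23 and 10). Deviations were taken from each group's mean and sum to 0 there, so positive values at some pairs go with negative ones at others. Whether the signs go with sex and age or with a pairing of libraries was not tested. With no coverage given, levels of 0 and 100% could not be weighed by reads.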
